A study of Homo sapiens with 6 samples.

Results

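The facilitative glucose transporters are encoded by the SLC2A family, and 10 SLC2A genes out of the 25369 genes in the expression tables are described here, chosen by their symbols: SLC2A1, SLC2A3, SLC2A4, SLC2A6, SLC2A8, SLC2A10, SLC2A11, SLC2A12, SLC2A13 and SLC2A14. The data are RNA-Seq of Caki2, an established human line used as a model of renal clear cell carcinoma (ccRCC), with or without re-expression of PBRM1, a subunit of the PBAF chromatin remodeling complex. Per the paper, Caki2 has a small deletion in an exon of PBRM1 that accounts for its lack of the protein, while PBRM1 mRNA is expressed. Caki2+Vector cells carry an empty doxycycline-inducible lentiviral vector and, per the labels, express no PBRM1. Caki2+PBRM1 cells carry the same kind of vector with full length PBRM1. Both lines received doxycycline at 2 µg/mL and grew in the same medium, and both were selected as stable lines after infection. Each group has 3 biological replicates, named A, B and C, for which no separate infections are named, so the p-values measure the spread between replicates of 1 line per genotype.

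SLC2A proteins, also called GLUT proteins, let hexoses and related polyols cross a membrane down their concentration gradient, without coupling to ATP or sodium, and SLC2A13 differs in that it moves myo-inositol together with protons. By sequence the family falls into class I (SLC2A1, SLC2A2, SLC2A3, SLC2A4 and SLC2A14), class II (SLC2A5, SLC2A7, SLC2A9 and SLC2A11) and class III (SLC2A6, SLC2A8, SLC2A10, SLC2A12 and SLC2A13), many of the last of which sit mainly on intracellular membranes. In the kidney tubule, glucose enters cells through the sodium-coupled carriers SLC5A1 and SLC5A2 and leaves them through SLC2A2, whereas in ccRCC loss of VHL stabilizes hypoxia-inducible factors, of which SLC2A1 is a well known target.

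PBRM1 re-expression went with higher transcript levels of 4 SLC2A genes, SLC2A10, SLC2A12, SLC2A1 and, by a narrow margin, SLC2A13. No lower level passed the test. RefSeq promoter sequences are shown for these 4 genes, because they moved in the same direction. Each runs 5′ to 3′ on the strand of its gene from 250 bases before to 50 bases after the RefSeq start site on GRCh38.p14. Capitals mark the letters ACGTG, a form of the core of a hypoxia response element, and GGGCGG, the GC box bound by SP1-type factors, on either strand. A match on the other strand reads CACGT or CCGCCC. Positions are counted to the first base of the match as printed, with -1 the base before the start site. The other form of the core, GCGTG, was not searched for and is not marked, though its letters occur in the printed SLC2A1 and SLC2A13 windows. A window without ACGTG is therefore not a window without any form of the core. The SLC2A1 window lies at chr1:42958819-42959118 on the minus strand, that of SLC2A10 at chr20:46709399-46709698 on the plus strand, that of SLC2A12 at chr6:134052575-134052874 on the minus strand and that of SLC2A13 at chr12:40106032-40106331 on the minus strand.
SLC2A1: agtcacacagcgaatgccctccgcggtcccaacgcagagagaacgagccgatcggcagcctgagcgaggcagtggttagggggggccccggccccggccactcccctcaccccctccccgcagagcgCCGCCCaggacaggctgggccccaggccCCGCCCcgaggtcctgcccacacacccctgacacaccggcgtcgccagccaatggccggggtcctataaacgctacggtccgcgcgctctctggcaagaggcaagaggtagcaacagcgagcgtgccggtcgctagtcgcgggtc
SLC2A10: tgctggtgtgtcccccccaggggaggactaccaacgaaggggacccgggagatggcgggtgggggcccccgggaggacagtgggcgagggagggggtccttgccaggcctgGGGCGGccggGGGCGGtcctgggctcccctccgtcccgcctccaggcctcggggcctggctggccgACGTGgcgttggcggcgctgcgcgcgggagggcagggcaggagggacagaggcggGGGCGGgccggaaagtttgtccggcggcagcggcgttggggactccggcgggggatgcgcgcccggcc
SLC2A12: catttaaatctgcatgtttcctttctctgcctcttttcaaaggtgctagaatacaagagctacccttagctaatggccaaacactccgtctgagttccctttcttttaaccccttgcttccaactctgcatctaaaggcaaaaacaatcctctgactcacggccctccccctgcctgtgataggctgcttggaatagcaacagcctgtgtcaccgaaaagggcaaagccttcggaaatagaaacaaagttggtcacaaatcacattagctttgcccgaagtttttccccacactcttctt
SLC2A13: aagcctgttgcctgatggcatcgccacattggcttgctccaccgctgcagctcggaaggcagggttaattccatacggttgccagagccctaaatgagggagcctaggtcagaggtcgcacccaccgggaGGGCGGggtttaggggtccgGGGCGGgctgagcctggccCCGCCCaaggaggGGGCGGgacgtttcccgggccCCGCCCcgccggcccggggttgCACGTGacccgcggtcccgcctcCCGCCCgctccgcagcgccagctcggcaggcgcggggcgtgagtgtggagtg

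The SLC2A1, SLC2A10 and SLC2A13 windows had GGGCGG and a high share of G and C in common, and the SLC2A12 window differed from them. The SLC2A10 window held ACGTG at -73 and GGGCGG at -139, -129 and -18. In the SLC2A13 window the palindrome CACGTG at -25, an E-box that contains ACGTG on both strands, lay among 6 matches of GGGCGG. The SLC2A1 window had no ACGTG but GGGCGG at -123 and -95, and the SLC2A12 window had neither motif. G and C made up 71.0%, 78.0%, 45.7% and 71.3% of the bases of the SLC2A1, SLC2A10, SLC2A12 and SLC2A13 windows. Of the 8 member genes with a RefSeq window (all but SLC2A3 and SLC2A4), 3 held ACGTG (SLC2A10, SLC2A13 and SLC2A14) and 6 held GGGCGG (the same genes with SLC2A1, SLC2A6 and SLC2A8), while the 3 windows of SLC2A11 held neither. Over 35116 RefSeq promoters of the same length, 21.4% held ACGTG, 7.3% held CACGTG and 45.0% held GGGCGG. A match is a description of the letters only, and the RNA-Seq tables do not show which start site was used.

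The 6 samples had between 7312955 and 10835355 reads on genes. The check of the labels was clear, with 182 to 195 normalized counts of PBRM1 in Caki2+Vector samples, so that its transcript was not absent, and 2432 to 2682 in Caki2+PBRM1 samples, a 13.6-fold difference (limma, adjusted p = 3.33e-29). Of 12 renal epithelial markers, 10 reached 10 normalized counts in 3 samples, among them PAX8 at 1888 to 2190, while CDH1 (0 to 1.89) and LRP2 (0 to 15.1) did not. The summed level of these markers was 17662 to 18616 without PBRM1 and 17388 to 18087 with it. Of 7 markers of other cells, none reached 10 normalized counts, CD3E, HBA1, HBB, CDH5 and ALB were at 0 in all samples, and the summed level was 3.78 to 5.99 without PBRM1 and 0 to 3.56 with it. Replicates of Caki2+PBRM1 differed little beyond counting error (chi-square per degree of freedom 1.19 to 1.22), as did Caki2+Vector B and C (1.34), but Caki2+Vector A stood apart from B (3.09) and C (2.84), and values without it are given beside the results that it moves most.

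Values below are normalized counts, which are reads on a gene divided by the size factor of the sample, without division by gene length. A gene was tested if it had at least 10 normalized counts in at least 3 samples, and 13303 genes were, including 8 of the 10 members. The lowest value of these 8 in any sample was 56.7 normalized counts (SLC2A10 in Caki2+Vector B), so none of them entered through a single group. Differences are log2 fold changes of Caki2+PBRM1 over Caki2+Vector on log2(normalized count + 1), tested with limma and adjusted over all 13303 genes. Of the 8 members, 4 passed an adjusted p of 0.05 as higher in Caki2+PBRM1, against 16.2% of all tested genes, and 0 passed as lower, against 13.0% (0 also at an unadjusted p of 0.05 in limma, and with edgeR and DESeq2). For the same 4 members every Caki2+PBRM1 value lay above every Caki2+Vector value, against 22.1% of all tested genes, and 0 lay the opposite way, against 19.6%. All 8 had a positive log2 fold change, where 6571 of the 13303 tested genes did. Their median was 0.17, where the median of all tested genes was -0.0036. SLC2A9, the other tested gene of the family, is not a member and had a log2 fold change of -0.012. The shared sign thus holds for the members, not for the whole family. In a culture sequenced in bulk, more cells with a transcript and more transcript per cell cannot be told apart. These values are transcript levels, not carrier protein, its place in the cell or glucose uptake. The paper reports significantly lower glucose uptake by Caki2+PBRM1 cells in a separate assay, so higher transcript levels here cannot be read as higher uptake.

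**Figure D1:**
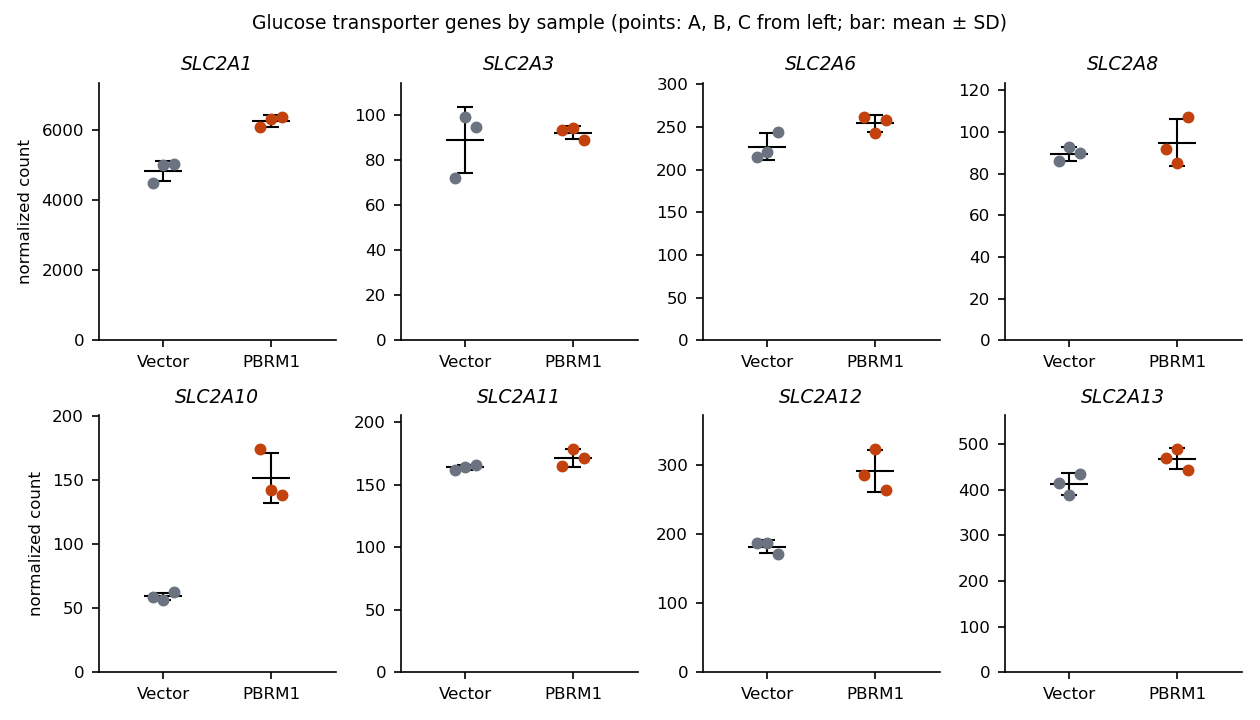
Normalized counts (y axis, from 0, a separate scale for each gene) of the 8 tested SLC2A genes in Caki2+Vector (grey) and Caki2+PBRM1 (orange). Points are replicates A, B and C from left to right and bars give the mean ± SD (n = 3). In SLC2A1, SLC2A10, SLC2A12 and SLC2A13 the groups do not overlap, in the other 4 they do.

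Among class I genes, SLC2A1, which encodes GLUT1, the carrier of basal glucose uptake in most cells, lies on chromosome 1 of GRCh37 from 43391024 to 43424564 (minus strand, ENSG00000117394). Its normalized counts were 4482, 4981 and 5010 in Caki2+Vector A, B and C and 6068, 6313 and 6374 in Caki2+PBRM1 A, B and C. The lowest Caki2+PBRM1 value stood well above the highest Caki2+Vector value, and Caki2+Vector A was the lowest of all. The log2 fold change was 0.38 (SE 0.040, 95% interval 0.29 to 0.46, limma adjusted p = 2.44e-08), which is 1.30-fold. Without Caki2+Vector A it was 0.32 and still passed. The gene had the most reads of the 8, from 4180 to 7595 per sample, and the smallest SE. Another annotated transcript without a gene symbol overlaps 7.51% of its exon length on the opposite strand.

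The other class I genes showed no such difference. SLC2A3 (chromosome 12 from 8071826 to 8171603, minus strand) encodes GLUT3, the high-affinity carrier known from neurons. It had 71.9, 99.2 and 94.7 normalized counts in Caki2+Vector A, B and C and 93.2, 94.2 and 89.0 in Caki2+PBRM1. The groups overlapped and the spread came mainly from Caki2+Vector A, without which the log2 fold change turned from 0.069 to -0.073. Neither value passed the test (limma, adjusted p = 0.747 and 0.728), and the 95% interval of the difference with all samples ran from -0.20 to 0.34. SLC2A14, a near copy of SLC2A3 on the same chromosome (from 7965108 to 8043744) known mainly from testis, had 0 reads in 5 samples and 2 reads in Caki2+PBRM1 B. Of the windows of 100 bases in the annotated SLC2A3 transcripts, 3.58% also occur in SLC2A14, so reads from these stretches cannot be assigned to either gene with certainty. SLC2A4 (chromosome 17 from 7185037 to 7191576, plus strand) encodes GLUT4, the insulin-responsive carrier of muscle and fat. It had 0, 0 and 2 reads in Caki2+Vector A, B and C and 3, 0 and 1 in Caki2+PBRM1. Neither gene was tested, and no fold is given for them, since a count of 0 allows up to 3 reads and both lay at or under that limit in all 6 samples.

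In class II, SLC2A11 (chromosome 22 from 24198890 to 24228499, plus strand) encodes GLUT11, a carrier of glucose and fructose that rodents lack. It had 162, 164 and 165 normalized counts in Caki2+Vector and 165, 179 and 171 in Caki2+PBRM1. The Caki2+Vector values lay close together (SD 1.81), and Caki2+PBRM1 A fell inside their range. The log2 fold change of 0.064 (SE 0.093, 95% interval -0.12 to 0.25) did not pass (limma, adjusted p = 0.652). About 24.0% of its exon length overlaps other annotated transcripts without a gene symbol, on both strands, so the count is uncertain to that extent.

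The largest differences lay in class III. SLC2A10 encodes GLUT10, an intracellular carrier linked to dehydroascorbic acid transport and mutated in arterial tortuosity syndrome. The gene lies on chromosome 20 from 45338288 to 45364986 (plus strand, ENSG00000197496), and none of its exon length overlaps another annotated gene. It had 58.7, 56.7 and 62.3 normalized counts in Caki2+Vector A, B and C and 174, 142 and 138 in Caki2+PBRM1 A, B and C, from 52 to 62 reads and from 160 to 165 reads. All Caki2+PBRM1 values were far above all Caki2+Vector values, with Caki2+PBRM1 A the highest. The log2 fold change was 1.34 (SE 0.13, 95% interval 1.08 to 1.59, limma adjusted p = 1.33e-09), or 2.52-fold, the 137th highest of the 13303 genes tested. Without Caki2+PBRM1 A, the gene still passed, with a log2 fold change of 1.23.

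SLC2A12 followed. It encodes GLUT12, which is found in insulin-sensitive tissues and in the distal nephron, and lies on chromosome 6 from 134308719 to 134373762 (minus strand, ENSG00000146411). Its normalized counts were 187, 187 and 171 in Caki2+Vector A, B and C and 286, 324 and 264 in Caki2+PBRM1 A, B and C. The groups were well separated, and the Caki2+PBRM1 replicates were more spread (SD 29.9) than those of Caki2+Vector (SD 9.16). The log2 fold change was 0.67 (SE 0.088, 95% interval 0.49 to 0.85, limma adjusted p = 5.93e-07), or 1.59-fold, the 523rd highest. In the GENCODE annotation, 51.2% of the exon length of SLC2A12 is overlapped by TBPL1 on the opposite strand, and the libraries were prepared without a stated strand mark, so reads in the shared stretch cannot be assigned to either gene. TBPL1, a relative of the TATA-binding protein, ranged from 225 to 245 normalized counts without PBRM1 and from 236 to 252 with it, which overlap, at a log2 fold change of 0.068 (95% interval -0.097 to 0.23, limma adjusted p = 0.571).

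SLC2A13 encodes HMIT, the proton and myo-inositol symporter, and lies on chromosome 12 from 40148827 to 40499891 (minus strand). It had 415, 388 and 435 normalized counts in Caki2+Vector A, B and C and 469, 490 and 444 in Caki2+PBRM1 A, B and C. The groups did not overlap, but Caki2+Vector C and Caki2+PBRM1 C were only 435 against 444. The log2 fold change was 0.18 (SE 0.067, 95% interval 0.044 to 0.32, limma adjusted p = 0.0407), or 1.13-fold. The call was lost with DESeq2 (adjusted p = 0.169), with limma when no filter was applied (0.0565) and with limma without Caki2+Vector B (0.165), Caki2+PBRM1 A (0.112) or Caki2+PBRM1 B (0.195).

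The remaining class III genes did not pass. SLC2A6 (chromosome 9 from 136336216 to 136344249, minus strand) encodes GLUT6, found on lysosomal membranes. It had 215, 221 and 245 normalized counts in Caki2+Vector and 262, 243 and 258 in Caki2+PBRM1. Only Caki2+Vector C, at 245, reached into the Caki2+PBRM1 range, and the log2 fold change of 0.16 (SE 0.083, limma adjusted p = 0.138) was close in size to that of SLC2A13, with a 95% interval from -0.0040 to 0.33. SLC2A8 (chromosome 9 from 130159417 to 130170703, plus strand) encodes GLUT8, another carrier of intracellular membranes. Its values were 86.1, 92.6 and 89.9 in Caki2+Vector and 92.1, 85.3 and 107 in Caki2+PBRM1. The Caki2+PBRM1 values lay on both sides of the Caki2+Vector range, and the log2 fold change of 0.078 (95% interval -0.18 to 0.34, limma adjusted p = 0.694) became -0.014 without Caki2+PBRM1 C.

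**Figure D2:**
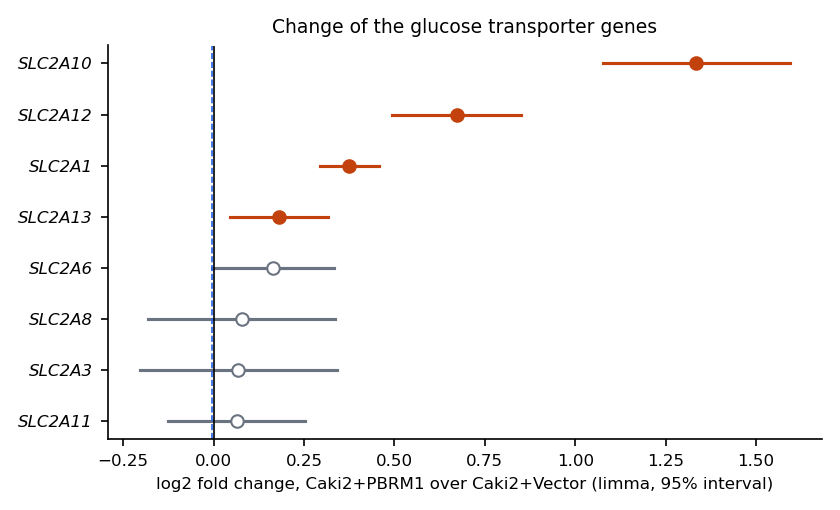
Log2 fold changes (x axis) of Caki2+PBRM1 over Caki2+Vector for the 8 tested SLC2A genes with their 95% intervals from limma. Filled orange points passed an adjusted p of 0.05, open grey points did not, and the dashed line marks the median of all tested genes. The intervals of SLC2A10, SLC2A12 and SLC2A1 lie far from 0, that of SLC2A13 begins at 0.044, and the 4 others include 0.

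To compare levels between the genes, reads were also divided by exon length, as RPKM, the reads on a gene per kilobase of its exons, scaled by the total reads on genes of the sample. By this measure SLC2A1 was by far the most abundant transporter, at 83.3 ± 4.71 RPKM (SD, n = 3) without PBRM1 and 104 ± 2.87 (SD, n = 3) with it. In Caki2+Vector it was followed in order by SLC2A6 (7.33 ± 0.49), SLC2A13 (4.70 ± 0.28), SLC2A12 (3.73 ± 0.19), SLC2A8 (2.60 ± 0.078), SLC2A11 (2.10 ± 0.016), SLC2A10 (1.40 ± 0.070) and SLC2A3 (1.39 ± 0.22). Only the ranges of SLC2A10 and SLC2A3 overlapped among these neighbours, and SLC2A4 and SLC2A14 came last at or near 0.

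In Caki2+PBRM1, SLC2A12 (5.75 ± 0.60) stood ahead of SLC2A13 (5.13 ± 0.25), with overlapping ranges, and SLC2A10 (3.45 ± 0.44) ahead of SLC2A8 (2.66 ± 0.32) and SLC2A11 (2.12 ± 0.091). SLC2A10 thus moved from the seventh to the fifth place, and SLC2A3 (1.40 ± 0.042) stayed last among the tested members. The order depends on the length used. With the length of the longest transcript, SLC2A1, SLC2A6 and SLC2A13 were the first 3 in both groups and SLC2A11 was the fourth. SLC2A12 was then the sixth in Caki2+Vector and the fifth in Caki2+PBRM1, and SLC2A10 the eighth and the seventh, but in Caki2+PBRM1 the ranges of neighbours from the fourth to the seventh place (SLC2A11, SLC2A12, SLC2A8 and SLC2A10) overlapped. The level of SLC2A11 in Caki2+Vector went from 2.10 RPKM with all exons to 5.73 with the longest transcript. The level and the place of SLC2A12 are uncertain for another reason, since its length includes the 51.2% shared with TBPL1. If reads there were not counted, its RPKM is too low in all samples, which was not tested. For SLC2A4 and SLC2A14 the limit of 3 reads corresponded to 0.069 to 0.103 and 0.050 to 0.074 RPKM per sample.

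**Figure D3:**
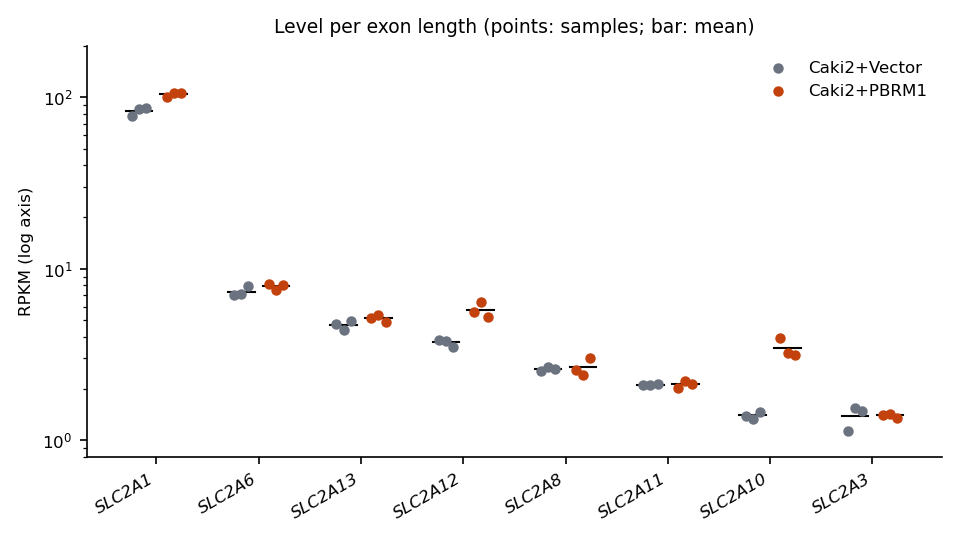
RPKM on a log axis (y) of the 8 tested SLC2A genes, ordered by their mean in Caki2+Vector, with a point for each sample (grey Caki2+Vector, orange Caki2+PBRM1) and a bar at the mean. SLC2A1 lies at 77.8 to 106 RPKM and all others between 1.14 and 8.14, and SLC2A10 lies under SLC2A8 and SLC2A11 in Caki2+Vector but above them in Caki2+PBRM1.

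Summed over the 10 members, the level was 101, 108 and 111 RPKM in Caki2+Vector A, B and C and 130, 134 and 134 in Caki2+PBRM1 A, B and C. The groups did not overlap, and the mean was 107 ± 5.25 and 132 ± 2.40 (SD, n = 3), higher by 24.2% (exact permutation test, two-sided, p = 0.1, the smallest that 3 against 3 samples allow). As a log2 ratio this was 0.31, and 0.27 without Caki2+Vector A. With all exons, SLC2A1 made up 80.0% of the added RPKM, SLC2A10 7.93%, SLC2A12 7.82% and SLC2A6 2.24%. Shares of the sum and of the added RPKM depend on the length used. With the longest transcript, SLC2A1 had a mean of 163 RPKM in Caki2+Vector and 203 in Caki2+PBRM1, while SLC2A12 stayed at 3.73 and 5.75. SLC2A1 then made up a larger part of both, and SLC2A10 and SLC2A12 smaller parts. With all exons, SLC2A1 alone was 77.4%, 78.8% and 78.2% of the sum in Caki2+Vector and 77.7%, 78.6% and 79.2% in Caki2+PBRM1. These shares overlapped, with means of 78.1% ± 0.72 and 78.5% ± 0.80 (SD, n = 3, exact permutation p = 0.6), and the small difference changed sign without Caki2+Vector A (-0.0047 percentage points) or Caki2+PBRM1 C (-0.0082 percentage points).

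Without SLC2A1, the sum was 22.8, 23.0 and 24.1 RPKM in Caki2+Vector and 29.0, 28.6 and 27.8 in Caki2+PBRM1, again without overlap and 22.2% higher (exact permutation p = 0.1). Leaving out SLC2A12 as well, for its overlap with TBPL1, a choice made after the data were seen, the sum was still 16.1% higher, at 19.6 ± 0.93 and 22.7 ± 0.56 RPKM (SD, n = 3, exact permutation p = 0.1). With all exons, SLC2A10 made up 1.23% to 1.39% of the whole sum in Caki2+Vector and, without overlap, 2.35% to 3.05% in Caki2+PBRM1 (exact permutation p = 0.1).

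**Figure D4:**
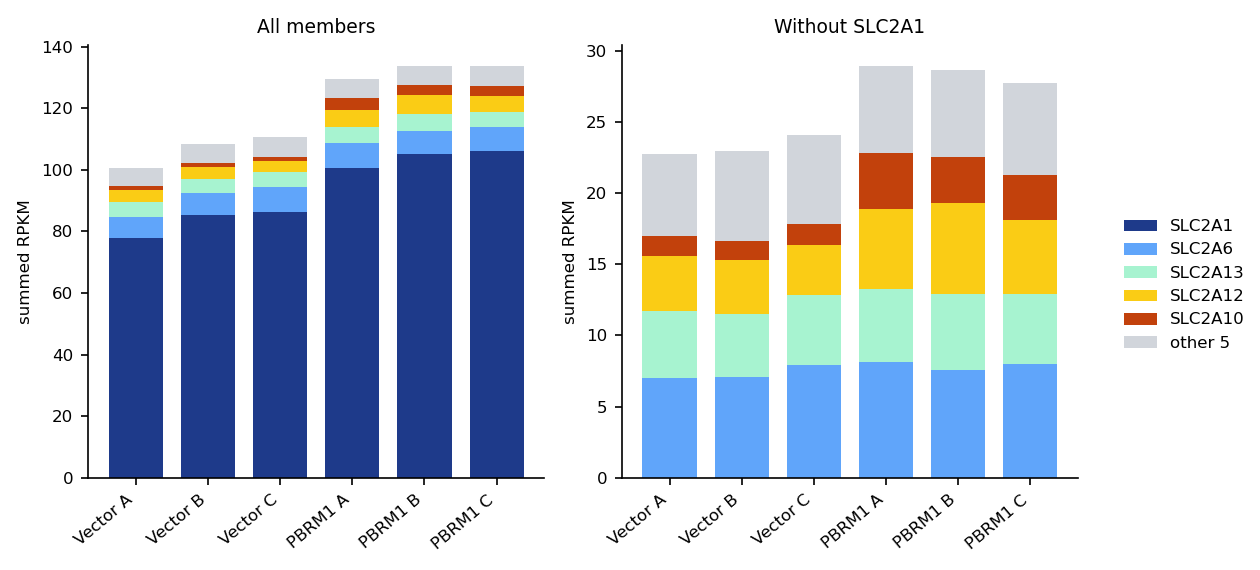
Stacked RPKM (y axis, from 0) of the SLC2A genes in each of the 6 samples, for all 10 members (left) and without SLC2A1 (right). SLC2A1 fills 77.4% to 79.2% of each left-hand bar, and in the right-hand bars the SLC2A10 and SLC2A12 segments are taller in the 3 Caki2+PBRM1 samples.

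Whether the members changed by unlike amounts was examined by the log2 ratio of each to SLC2A1 within a sample, in 7 comparisons. The ratio of SLC2A10 to SLC2A1 ran from -6.43 to -6.23 in Caki2+Vector and from -5.51 to -5.11 in Caki2+PBRM1, higher by 0.96 on the log2 scale without overlap. The ratio of SLC2A12 ran from -4.86 to -4.57 and from -4.59 to -4.28, which overlapped, with a mean difference of 0.30 (exact permutation p = 0.2). For SLC2A3, SLC2A6, SLC2A8, SLC2A11 and SLC2A13 the ratio was lower in every Caki2+PBRM1 sample than in every Caki2+Vector sample, by differences of -0.31, -0.21, -0.30, -0.31 and -0.20. With 3 against 3 samples these comparisons could not reach 0.05. The 6 without overlap had an exact permutation p of 0.1, the smallest possible, and 0.117 after adjustment over the 7. SLC2A1 itself rose by a log2 fold change of 0.38, so a gene that did not change also has a lower ratio in Caki2+PBRM1. How often this ratio was without overlap among all tested genes was not computed, so the count says little about the members.

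SLC2A2, SLC2A5, SLC2A7 and SLC2A9 complete the family. SLC2A2, the exit carrier of the proximal tubule, and SLC2A5 and SLC2A7, carriers of fructose, had at most 2 reads in any sample. SLC2A9, a urate carrier of the tubule, ranged from 50.3 to 61.5 normalized counts without PBRM1 and from 54.2 to 61.7 with it, at a log2 fold change of -0.012 (95% interval -0.33 to 0.30, limma adjusted p = 0.965) whose sign varied with the samples left out (0.040 without Caki2+Vector A). Among sodium-coupled and other sugar carriers, SLC5A1 and SLC5A2 reached at most 0.947 and 2.52 normalized counts, and none of the 4 tested genes of the list passed in either direction (0 also at an unadjusted p of 0.05 in limma, and with edgeR and DESeq2).

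Genes around glucose transport were taken from lists of 60 genes, of which 42 were tested. Of these, 9 passed as higher and 7 as lower, against 16.2% and 13.0% of all tested genes, and their median log2 fold change was -0.0080, against -0.0036 over all tested genes. The counts of single lists below are small and no list was compared with other genes by a test. Among 7 tested genes of glucose phosphorylation and release, 2 rose and 1 fell. HK2, a hexokinase that traps glucose in the cell, had 819, 900 and 907 normalized counts in Caki2+Vector and 1213, 1204 and 1241 in Caki2+PBRM1. The groups were far apart, and the log2 fold change was 0.48 (SE 0.050, limma adjusted p = 1.08e-08). HK1, the hexokinase of most tissues, rose by less, with a log2 fold change of 0.20 (limma, adjusted p = 0.000631) and 1802 to 1936 against 2085 to 2236 normalized counts. GCKR, a regulatory protein known from liver, went from 180 to 197 down to 132 to 149 normalized counts (log2 fold change -0.41, limma adjusted p = 0.00139).

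Among the 17 genes of transporter traffic and turnover, all tested, 4 rose and 1 fell, and the median log2 fold change was 0.033. TXNIP, an arrestin-like protein known to promote the removal of GLUT1 from the cell surface, had 887, 903 and 850 normalized counts in Caki2+Vector and 1745, 1766 and 1767 in Caki2+PBRM1. This was the largest difference of the list, with a log2 fold change of 1.00 (SE 0.046, limma adjusted p = 9.59e-17). Its relative ARRDC4 rose from 298 to 304 up to 394 to 441 (log2 fold change 0.47, limma adjusted p = 4.95e-06). TBC1D4 and TBC1D1, paired regulators of the release of GLUT4 vesicles, went opposite ways. TBC1D4 had a log2 fold change of 0.21 (limma, adjusted p = 0.0185, and 0.110 with DESeq2) and TBC1D1 of -0.28 (limma, adjusted p = 0.00339). SORT1, which sorts GLUT4 into vesicles, was the other gene that passed and is named after its values were seen (log2 fold change 0.19, or 0.12 without Caki2+Vector C, limma adjusted p = 0.0370, and 0.172 with DESeq2). TBC1D4 also lost its call without Caki2+Vector C (limma, adjusted p = 0.0958) or Caki2+PBRM1 A (0.145), and SORT1 without Caki2+Vector B (0.0501), Caki2+Vector C (0.219), Caki2+PBRM1 A (0.120) or Caki2+PBRM1 B (0.180). The count of genes that rose was then 2 without Caki2+Vector C or Caki2+PBRM1 A, and without Caki2+Vector A 6 genes rose and 2 fell. The 12 others did not pass.

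Of 5 tested lactate carrier genes, 2 rose and 1 fell. SLC16A3, the lactate exporter of glycolytic cells, had 2829, 3494 and 3566 normalized counts in Caki2+Vector and 4351, 4268 and 4504 in Caki2+PBRM1 (log2 fold change 0.42, SE 0.081, limma adjusted p = 0.00500), with Caki2+Vector A the lowest. Without it the log2 fold change was 0.31 and still passed. BSG, the chaperone of these carriers, had a log2 fold change of 0.22 (limma, adjusted p = 0.00112), or 0.15 without Caki2+Vector A (adjusted p = 0.000982), and SLC16A7, a carrier with high affinity for pyruvate, of -0.32 (limma, adjusted p = 0.000833). SLC16A1, the most widely expressed of these carriers, was lower without overlap but did not pass (log2 fold change -0.089, 95% interval -0.20 to 0.018, limma adjusted p = 0.216).

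The genes of myo-inositol uptake and synthesis, which bear on the substrate of SLC2A13, included 4 tested genes, of which 2 fell and 0 rose. ISYNA1, which makes myo-inositol phosphate from glucose 6-phosphate, had 762, 957 and 907 normalized counts in Caki2+Vector and 665, 716 and 708 in Caki2+PBRM1 (log2 fold change -0.32, limma adjusted p = 0.000616, and -0.42 without Caki2+Vector A). SLC5A3, the sodium and myo-inositol cotransporter, had a log2 fold change of -0.13 (limma, adjusted p = 0.0233, and 0.0624 with DESeq2), opposite in sign to SLC2A13. Its call was also lost without Caki2+PBRM1 A (limma, adjusted p = 0.109), B (0.0855) or C (0.0549), which left 1 gene of the list past the threshold.

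Of 4 tested urate and ascorbate carriers, 1 rose and 2 fell. SLC17A3, a urate carrier of the tubule, had 12.3, 15.1 and 7.19 normalized counts in Caki2+Vector and 44.4, 35.6 and 57.1 in Caki2+PBRM1 (log2 fold change 1.93, SE 0.26, limma adjusted p = 1.35e-06), a large difference at a low level, and it was not tested where at least 10 normalized counts were required in every sample. ABCG2, a urate exporter, had a log2 fold change of -0.48 (limma, adjusted p = 0.000177). SLC23A1, the sodium and ascorbate cotransporter, had -0.64 (SE 0.21, limma adjusted p = 0.0221, and 0.141 with DESeq2) at 20.1 to 38.7 normalized counts. Without Caki2+Vector A (limma, adjusted p = 0.0527), Caki2+Vector B (0.0906), Caki2+PBRM1 B (0.0632) or Caki2+PBRM1 C (0.0865) SLC23A1 did not pass, and 1 gene of the list then fell.

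**Figure D5:**
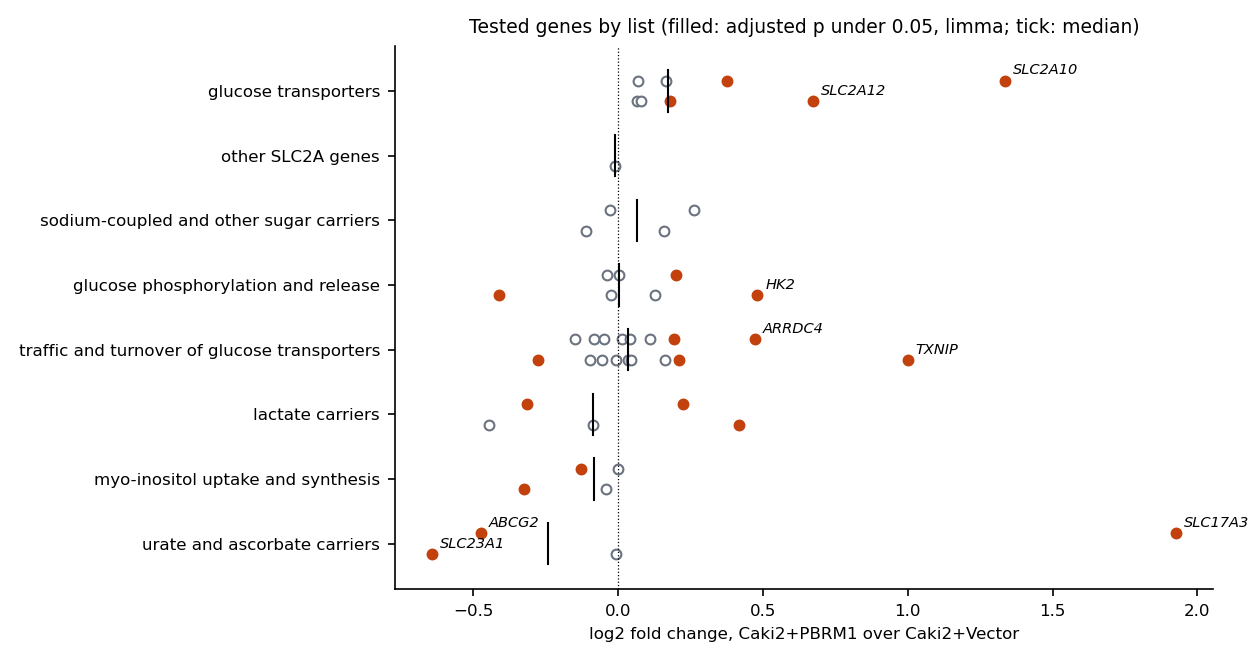
Log2 fold changes (x axis) of the tested genes of each list (rows). The top row, labelled glucose transporters, holds the 8 tested SLC2A members, among them SLC2A13. Filled orange points passed an adjusted p of 0.05 in limma, open points did not, and the vertical tick marks the median of the row. All points of the top row lie above 0, whereas 9 of the 42 other genes passed as higher and 7 as lower. The point of the other SLC2A genes, SLC2A9, lies at -0.012.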

How the data were processed

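RNA-Seq of Caki2+Vector and Caki2+PBRM1 cells (3 replicates each, grouped by their labels) was analysed. Per the paper, poly(A) RNA was sequenced as 100-base read pairs, the authors trimmed adapters and discarded poor and rRNA reads, used STAR for alignment to hg19, and applied htseq-count to 25369 UCSC genes. The versions and the strand setting are not given in the sources used here. The values the authors deposited are a signal in normalized counts, that is, read counts divided by a DESeq2 size factor (0.834 to 1.19 here). In each file 100% of values were whole reads times a single step (within 0.01 reads), so the reads, and with them the depth of 7312955 to 10835355 reads on genes, were recovered for RPKM and for the count models.

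log2(normalized count + 1) of the 13303 genes with at least 10 normalized counts in 3 samples was tested with limma 3.58.1 (trend, robust) in R 4.3.3 with Benjamini-Hochberg adjustment. edgeR 4.0.16, DESeq2 1.42.0, voom, TMM scaling, other filters and pseudocounts, a replicate block and leaving out each replicate were alternatives. Single sums and ratios were compared with two-sided exact permutation tests (Python 3.11.15, numpy 2.4.6). Positions and exon lengths are those of GENCODE on GRCh37, which is not the annotation used for counting, so RPKM is approximate, and promoters are those of RefSeq on GRCh38.p14. The scripts were tested on simulated data. Named genes are the members, PBRM1, and up to 4 genes per list with the largest change past the threshold, with HK1, HK2, TXNIP, SLC5A3, SLC16A1 and SLC16A3. The members and the gene lists were chosen with earlier results of these data known. The limit of 3 reads for a count of 0 covers counting error only, since PCR copies are not independent molecules.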

Additional observations from a re-analysis of the deposited data

How the results depend on the processing

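SLC2A1, SLC2A10 and SLC2A12 kept their direction and passed the threshold in all 16 alternatives, with log2 fold changes of 0.32 to 0.40, 1.23 to 1.40 and 0.59 to 0.74. SLC2A13 passed in 10 of 16. It did not pass with DESeq2 (log2 fold change 0.18, adjusted p = 0.169), with limma and no filter (0.18, adjusted p = 0.0565) or at an adjusted p of 0.01 (0.18), and over the fits that left out a replicate its log2 fold change was 0.14 to 0.22 (limma, adjusted p up to 0.195). Leaving out a replicate gave -0.073 to 0.16 for SLC2A3, -0.014 to 0.15 for SLC2A8 and -0.10 to 0.040 for SLC2A9, whose sign was positive without Caki2+Vector A (0.040), Caki2+Vector B (0.027), Caki2+PBRM1 B (0.020) or Caki2+PBRM1 C (0.016). The difference in the share of SLC2A1 ran from -0.0082 to 0.79 percentage points over these fits. With the authors' size factors in place of the total, the summed level differed by a log2 ratio of 0.37 against 0.31. Over all genes, 2152 passed as higher and 1734 as lower, against 2194 and 1836 with edgeR, 1436 and 1007 with DESeq2 (both on the recovered reads), and 1496 and 1025 at an adjusted p of 0.01. The cause of these differences was not tested. The median log2 fold change of all genes lay between -0.0036 and -0.0066 with the authors' size factors, TMM scaling, DESeq2 and edgeR. It was not computed for scaling by total reads, which RPKM uses.

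Samples with the same replicate letter did not deviate together over the tested genes as a whole (Pearson r over 13303 genes -0.0077 to 0.0138). How the letters were assigned is not stated, and a shared batch that moved few genes could be missed by this measure. With the replicate letter as a block, 4 members again passed as higher and 0 as lower, and over all genes 2249 passed as higher and 1858 as lower. SLC2A4 and SLC2A14 lay at or under the limit of 3 reads in every sample, and 3 against 3 samples keep the exact permutation tests at p = 0.1 or above.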
